A study of Saccharomyces cerevisiae with 8 samples.

Results

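The disaggregase, small heat shock and sorting factors of budding yeast, Saccharomyces cerevisiae, are described here by the RNA of 10 named genes among the 6692 genes counted, HSP104, HSP26, HSP42, HSP12, HSP30, HSP31, HSP32, HSP33, BTN2 and CUR1. They were chosen by name and not by a threshold on these values, although earlier results of these data were known when the choice was made. RNA was sequenced from a RAD27 knockout kept at 37 °C, the same knockout at 30 °C, wild type at 37 °C and wild type at 30 °C, with 2 libraries in each group. RAD27 encodes the flap endonuclease that trims Okazaki fragments, and the series used RNA-seq to profile expression in cells where that maturation is defective. Cells of all groups came from overnight cultures at 30 °C in YPD, were diluted in fresh YPD and were harvested after 4 hours at the stated temperature. The labels give neither the parent strain, nor whether the knockout was 1 clone, nor whether the replicates of a group were grown apart.

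When proteins misfold, yeast cells both refold and sort them. Hsp42 and Hsp26 are small heat shock proteins that bind unfolded proteins without ATP. Hsp104 is a ring-shaped ATPase that works with Hsp70 and Hsp40 to pull single chains out of aggregates. Btn2 and Cur1 are related sorting factors that direct misfolded proteins to deposit sites. Hsp12 is a small stress protein that associates with membranes, Hsp30 is a stress protein of the plasma membrane that restrains the proton pump Pma1, and Hsp31, Hsp32 and Hsp33 belong to the DJ-1 family, of which Hsp31 acts on methylglyoxal. Many of these genes answer to the heat shock factor Hsf1, which binds heat shock elements, and to Msn2 and Msn4, which bind stress elements.

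Matches to both elements upstream of the start codons are shown to let the members be read by their known regulators. A heat shock element was searched as 2 inverted units, GAANNTTC or TTCNNGAA, and as 3 units, either of these followed by a further inverted unit after any 2 bases. Each of these patterns was sought on both strands, and every match of the longer form is also a match of the shorter. In the 300 bases before the start codon, 7 of 10 members held the 2-unit form, which 22.4% of 6007 yeast windows held, and 2 of 10 held the 3-unit form, which 0.866% held. In a 600-base window, added after the shorter one was seen, 8 of 10 held the 2-unit form, against 41.1% of 6005 windows, and 3 of 10 the 3-unit form, against 1.70%. The 3 were HSP104, HSP42 and BTN2, in each of which matches overlapped into a run of 18 bases, given in capitals below (5′ to 3′, strand of the gene, RefSeq assembly R64), beside the single match of HSP26.
HSP104, chrXII:88315-88344, plus strand: atatttTTCCAGAATTTTCTAGAAgggtta
HSP42, chrIV:806372-806401, plus strand: taaaagTTCTGGAAGGTTCGCGAAttgaga
BTN2, chrVII:772104-772133, plus strand: ttttttTTCTAGAAAGTTCCGGAAaattgc
HSP26, chrII:381665-381694, plus strand: cattgcttgatTTCTAGAAagatcgatggt
These runs began 302, 243 and 344 bases before the start codons of HSP104, HSP42 and BTN2, and that of HSP26 began 354 bases before. HSP32 and HSP33, near-identical copies with too few counts to be tested, are both counted among the members with the 2-unit form in each window. Their match 47 bases before the start codon stands in the same sequence, so the pair does not make separate cases.

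The stress element, AGGGG or its reverse complement CCCCT, stood in the 300-base window of 6 of 10 members, against 22.2% of windows, and in the 600-base window of 8 of 10, against 39.7%. HSP32 and HSP33 are again both counted, each with matches 191 and 150 bases before the start codon. HSP12 had 5 matches in 600 bases and HSP104, HSP26 and HSP42 had 3 each, whereas HSP30 and CUR1 had no match to these letters in either window. HSP30 held none of the heat shock patterns either. One match each is shown for the 2 members with the largest heat responses, followed by a pair of matches of HSP42, with the element in capitals.
HSP12, chrVI:107012-107041, plus strand: ctagatctacagCCCCTggaaaatcgtttg
HSP26, chrII:381692-381721, plus strand: ggttattccctcCCCCTtatgcgtccaaaa
HSP42, chrIV:806397-806426, plus strand: tgagaactgctcAGGGGcgaatacAGGGGc
A match describes the letters in a window and is neither evidence of binding nor a cause of a response.

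Library totals ran from 4734266 to 5588983 counts, and 5667 genes passed the filter on low counts. RAD27 had 0 counts in all 4 knockout libraries, against 479 to 533 counts in the wild type libraries, as the labels give. The 2 knockout libraries at 37 °C differed from one another more than replicates of the other groups did, with a chi-square per degree of freedom over genes of 8.73, against 1.86 to 4.03. Levels are given in CPM, counts scaled to the TMM-adjusted library size, as mean ± SD with n = 2 libraries a group, and fold changes as log2 ± SE from edgeR's quasi-likelihood test with Benjamini-Hochberg adjustment over all 5667 genes and a threshold of 0.05. In bulk cultures a higher level in every cell and a high level in a fraction of cells cannot be told apart. Of the 10 members, 8 passed the filter, and HSP32 and HSP33 did not.

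Summed over the 10 members, counts made up 0.351% and 0.351% of the knockout libraries at 37 °C and 0.0653% and 0.0770% of those at 30 °C. In wild type the share was 0.0984% and 0.0959% at 37 °C and 0.0540% and 0.0560% at 30 °C. HSP104 held 27.6% and 25.7% of the members' counts in the heated knockout, against 70.7% and 69.7% in the unheated knockout. HSP26 held 34.8% and 32.1% of them in the heated knockout, against 2.19% and 1.45% in the unheated knockout. In heated wild type HSP104 kept the greatest share, at 55.7% and 56.6%, against 62.7% and 64.4% in unheated wild type.

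**Figure D1:**
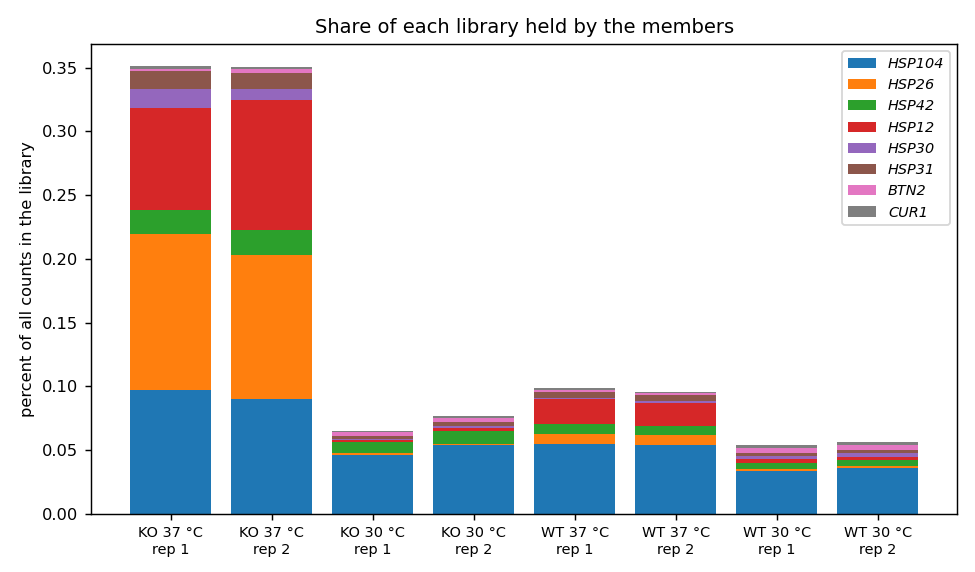
Percent of all counts in each of the 8 libraries held by the 8 members that were tested, stacked by gene, with the knockout (KO) left of wild type (WT) and 37 °C left of 30 °C. The bars of the heated knockout reach 0.351%, with HSP26, HSP12 and HSP104 as the widest bands, and HSP104 is the widest band in the other 6 libraries.

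HSP104 (YLL026W, chromosome XII, 88623 to 91349) was higher in the knockout than in wild type and higher at 37 than at 30 °C. It stood at 873 and 811 CPM in the heated knockout, 503 and 554 CPM in the unheated knockout, 538 and 532 CPM in heated wild type and 358 and 391 CPM in unheated wild type. The heated knockout was highest and unheated wild type lowest, without overlap, and heated wild type lay within the range of the unheated knockout. With temperature HSP104 rose by 0.67 ± 0.07 in the knockout (adjusted p = 5.68e-06) and by 0.52 ± 0.07 in wild type (adjusted p = 0.000211). With the knockout it rose by 0.65 ± 0.07 at 37 °C (adjusted p = 7.87e-06) and by 0.50 ± 0.07 at 30 °C (adjusted p = 0.000419). The heat response of the knockout exceeded that of wild type by 0.16 ± 0.10, a difference that did not pass (adjusted p = 0.267).

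HSP42 (YDR171W, chromosome IV, 806621 to 807748) moved in the same directions, with larger values for the knockout over wild type than for heat. Its levels were 172 and 176 CPM in the heated knockout, 92.0 and 104 CPM in the unheated knockout, 74.8 and 68.1 CPM in heated wild type and 43.9 and 48.9 CPM in unheated wild type. No groups overlapped, and the unheated knockout lay above heated wild type. HSP42 rose in the knockout over wild type by 1.28 ± 0.09 at 37 °C (adjusted p = 1.52e-07) and by 1.08 ± 0.10 at 30 °C (adjusted p = 9.68e-06). With temperature it rose by 0.82 ± 0.08 in the knockout (adjusted p = 3.37e-06) and by 0.62 ± 0.10 in wild type (adjusted p = 0.000514). The difference between the heat responses was 0.20 ± 0.13 and did not pass (adjusted p = 0.258).

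HSP26 (YBR072W, chromosome II, 382030 to 382674), for the other small heat shock protein, had a different pattern. It stood at 1100.4 and 1013 CPM in the heated knockout and at 15.6 and 11.6 CPM in the unheated knockout. In wild type it stood at 75.4 and 72.3 CPM at 37 °C and at 16.7 and 14.2 CPM at 30 °C. The unheated groups overlapped and the heated groups did not. The knockout over wild type difference was 3.84 ± 0.09 at 37 °C (adjusted p = 2.22e-11), a 14.3-fold higher level, and -0.19 ± 0.17 at 30 °C, which did not pass (adjusted p = 0.449). Heat raised HSP26 in both genotypes, and the response of the knockout exceeded that of wild type by 4.03 ± 0.20 (adjusted p = 1.19e-07). In the knockout HSP26 ranked 1 among the 5667 genes by its rise with heat, and in wild type it ranked 11. Per kilobase of coding sequence the level of HSP26 was 11.2 and 10.1 times that of HSP42 in the heated knockout, 0.296 and 0.194 times in the unheated knockout, 1.76 and 1.86 times in heated wild type and 0.666 and 0.509 times in unheated wild type. The order of the 2 small heat shock genes thus differed between temperatures in both genotypes.

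**Figure D2:**
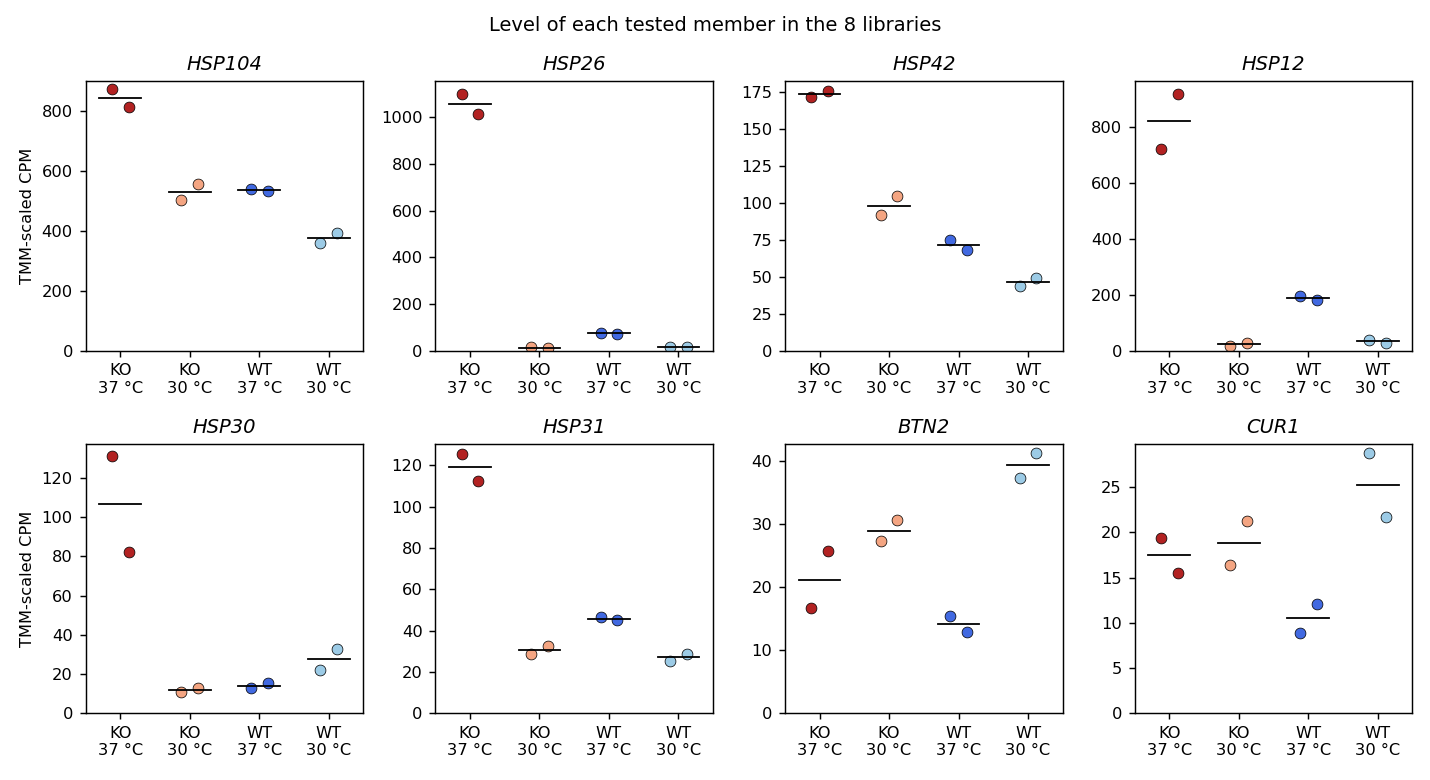
TMM-scaled CPM of the 8 tested members, 1 panel a gene, with both libraries of each group as points and the group mean as a bar, knockout (KO) left of wild type (WT) and 37 °C left of 30 °C. HSP26, HSP12, HSP30 and HSP31 are highest in the heated knockout, and of these HSP26, HSP12 and HSP31 are next highest in heated wild type. HSP104 and HSP42 are highest in the heated knockout and lowest in unheated wild type, and BTN2 and CUR1 are highest in unheated wild type.

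HSP12 (YFL014W, chromosome VI, 107256 to 107585) was the other member with a large heat response in both genotypes. Levels were 720.0 and 918 CPM in the heated knockout, 17.5 and 27.9 CPM in the unheated knockout, 194 and 182 CPM in heated wild type and 37.9 and 28.1 CPM in unheated wild type. Both heated groups lay above both unheated groups, and the knockout libraries were the highest at 37 °C and the lowest at 30 °C. At 37 °C HSP12 rose in the knockout over wild type by 2.12 ± 0.13 (adjusted p = 8.5e-08). At 30 °C its value was -0.53 ± 0.23 and did not pass (adjusted p = 0.0955), although it passed without knockout replicate 2 at 30 °C (-0.91, adjusted p = 0.0354), without knockout replicate 1 at 37 °C (-0.53, adjusted p = 0.0159) and without knockout replicate 2 at 37 °C (-0.53, adjusted p = 0.0147). The heat response of the knockout exceeded that of wild type by 2.65 ± 0.26 (adjusted p = 2.17e-05). HSP12 ranked 2 of 5667 by its rise in the knockout and 4 by its rise in wild type.

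HSP30 (YCR021C, chromosome III, 156109 to 157107) moved in opposite directions with heat in the genotypes. It stood at 131 and 82.0 CPM in the heated knockout and at 11.1 and 13.1 CPM in the unheated knockout, against 12.7 and 15.5 CPM in heated wild type and 22.3 and 33.02 CPM in unheated wild type. The heated knockout lay above all other libraries, and its 2 libraries differed from each other more than those of any other group. With heat HSP30 rose by 3.13 ± 0.25 in the knockout (adjusted p = 4.01e-07), whereas in wild type it fell by 0.98 (SE 0.30 in log2 units, adjusted p = 0.0225). The difference between the heat responses was 4.11 ± 0.39 (adjusted p = 1.56e-05). The fall in wild type did not pass without wild type replicate 2 at 30 °C (-0.66, adjusted p = 0.221), wild type replicate 1 at 37 °C (-0.84, adjusted p = 0.153) or wild type replicate 2 at 37 °C (-1.12, adjusted p = 0.0653).

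Between genotypes HSP30 rose in the knockout by 2.91 ± 0.24 at 37 °C (adjusted p = 7.19e-07) and fell by 1.20 at 30 °C (SE 0.31, adjusted p = 0.0108). That fall did not pass without wild type replicate 2 at 30 °C (-0.88, adjusted p = 0.117), knockout replicate 1 at 30 °C (-1.09, adjusted p = 0.0848) or knockout replicate 2 at 30 °C (-1.32, adjusted p = 0.0538). YRO2 and MRH1 encode membrane proteins of the same family as Hsp30. YRO2 rose with heat in the knockout (2.25 ± 0.09, adjusted p = 1.9e-09), did not pass in wild type (-0.10 ± 0.09, adjusted p = 0.436) and fell by 1.22 in the knockout over wild type at 30 °C (adjusted p = 2.42e-06). MRH1 fell by 0.73 with heat in wild type (adjusted p = 0.000136) and by 0.70 in the knockout at 30 °C (adjusted p = 0.000297). Of 6 genes for the proton pump, its proteolipids and its kinases, 2 rose and 3 fell in the knockout over wild type at 37 °C, where 30.5% of all genes tested rose and 29.2% fell, and 0 rose and 4 fell at 30 °C, where 14.6% rose and 15% fell. PMA1, the proton pump gene, fell in the knockout over wild type by 0.88 at 37 °C (adjusted p = 3.09e-05) and by 0.39 at 30 °C (adjusted p = 0.0222).

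In the DJ-1 family HSP31 (YDR533C, chromosome IV, 1501447 to 1502160) was the only gene with enough counts to be tested. Its levels were 125 and 113 CPM in the heated knockout, 28.9 and 32.5 CPM in the unheated knockout, 46.4 and 45.1 CPM in heated wild type and 25.4 and 28.9 CPM in unheated wild type. The heated knockout was highest and heated wild type next, and the unheated groups overlapped. HSP31 rose with heat by 1.95 ± 0.10 in the knockout (adjusted p = 1.77e-08) and by 0.75 ± 0.12 in wild type (adjusted p = 0.00045), a difference of 1.20 ± 0.16 (adjusted p = 0.000192). In the knockout over wild type it rose by 1.38 ± 0.10 at 37 °C (adjusted p = 1.96e-07) and did not pass at 30 °C (0.17 ± 0.13, adjusted p = 0.34). Of 4 genes for other routes of methylglyoxal removal, 4 rose in the knockout over wild type at 37 °C and 3 at 30 °C, beside 30.5% and 14.6% of all genes tested. GLO4 rose by 0.63 ± 0.12 (adjusted p = 0.00069) at 37 °C.

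HSP32 (YPL280W, chromosome XVI, 11887 to 12600) had 0 counts in all 8 libraries. By counting error alone the floor over the 41636880 counts is 0.0721 CPM. That floor covers assigned reads and sets no limit on the level of the RNA. HSP33 (YOR391C, chromosome XV, 1078545 to 1079258) had 2 and 0 counts in the heated knockout, 0 and 1 in the unheated knockout, 0 and 0 in heated wild type and 1 and 0 in unheated wild type, too few to compare. Both genes, and SNO4 with 5 counts in all, are near-identical copies, so that a read may belong to any of them. HSP32 differed from HSP33 at 4 of 714 coding bases and from SNO4 at 4, and HSP33 from SNO4 at 8, while HSP31 was 69.9% identical to HSP32. The first base at which HSP32 and HSP33 differ, coding base 54, is in capitals in the stretch of coding bases 39 to 68 shown here for the 3 copies.
HSP32, chrXVI:11925-11954, plus strand: ccacggtcccttctaTaaagatggtgcgaa
HSP33, chrXV:1079191-1079220, minus strand: ccacggtcccttctaCaaagatggtgcgaa
SNO4, chrXIII:919012-919041, minus strand: ccacggtcccttctaTaaagatggtgcgaa
HSP32 and HSP33 share runs of up to 413 identical bases. How the authors treated reads that map to several places is not given in the sources used here, so the counts of 0 say only that no read was assigned to HSP32.

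The sorting factor genes fell with heat in wild type, where HSP104, HSP26 and HSP42 rose. BTN2 (YGR142W, chromosome VII, 772454 to 773686) stood at 16.7 and 25.6 CPM in the heated knockout, 27.3 and 30.6 CPM in the unheated knockout, 15.3 and 12.8 CPM in heated wild type and 37.2 and 41.3 CPM in unheated wild type. Unheated wild type was highest and heated wild type lowest, and no groups overlapped. With heat BTN2 fell by 1.48 in wild type (SE 0.19, adjusted p = 8.43e-05), where it ranked 25 from the lowest of 5667 genes. In the knockout the value was -0.44 ± 0.18 with an adjusted p of 0.0467, a call that held in 5 of 16 other settings. Leaving out any library but knockout replicate 2 at 37 °C gave adjusted p from 0.0535 (without wild type replicate 1 or 2 at 37 °C) to 0.306 (without knockout replicate 1 at 37 °C, -0.19). Without knockout replicate 2 at 37 °C the value was -0.80 (adjusted p = 0.000618). DESeq2 gave -0.47 (adjusted p = 0.099) and library size alone -0.21 (adjusted p = 0.343).

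The heat responses of BTN2 differed by 1.04 ± 0.26 (adjusted p = 0.0092), which did not pass without wild type replicate 2 at 37 °C (0.89, adjusted p = 0.0556), and moved to 0.67 without knockout replicate 2 at 37 °C. BTN2 was higher in the knockout than in wild type at 37 °C by 0.59 ± 0.20 (adjusted p = 0.0228). That did not pass without wild type replicate 2 at 37 °C (0.45, adjusted p = 0.17), without knockout replicate 2 at 37 °C (0.23, adjusted p = 0.362), with DESeq2 (adjusted p = 0.0556) or with the 4 compared libraries alone (0.60, adjusted p = 0.0531). At 30 °C the value was -0.44 ± 0.17 (adjusted p = 0.0604), which passed without knockout replicate 1 at 37 °C (adjusted p = 0.00732), without knockout replicate 2 at 37 °C (adjusted p = 0.0072) and with the replicate number as a block (adjusted p = 0.0396).

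CUR1 (YPR158W, chromosome XVI, 843262 to 844020) stood at 19.4 and 15.5 CPM in the heated knockout, 16.4 and 21.3 CPM in the unheated knockout, 8.91 and 12.1 CPM in heated wild type and 28.8 and 21.7 CPM in unheated wild type. Heated wild type lay below all other groups, and the 2 knockout groups overlapped. CUR1 fell with heat by 1.26 in wild type (SE 0.22, adjusted p = 0.000752) and did not pass in the knockout (-0.11 ± 0.20, adjusted p = 0.645, and 0.12 with library size alone). The difference between those responses was 1.14 ± 0.30 (adjusted p = 0.0106). It did not pass without wild type replicate 1 at 30 °C (0.93, adjusted p = 0.0514) or wild type replicate 1 at 37 °C (0.92, adjusted p = 0.0704). At 37 °C CUR1 was higher in the knockout than in wild type by 0.73 ± 0.23 (adjusted p = 0.0138), but not without wild type replicate 1 at 37 °C (0.50, adjusted p = 0.153) or knockout replicate 1 at 37 °C (0.54, adjusted p = 0.0645). At 30 °C the value was -0.41 ± 0.19 and did not pass (adjusted p = 0.125).

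Counted over the members, 6 of the 8 tested rose with heat in the knockout and 1, BTN2, fell, beside 30.9% of all genes tested that rose and 28.2% that fell (edgeR). With library size as the only scaling the counts were 6 and 0. The median log2 fold change was 1.39 over the 8 members and 0.04 over all genes tested. In wild type 5 rose and 3 fell with heat, beside 15.7% and 17.1% of all genes, with medians of 0.57 and 0.01. The 3 that fell were HSP30, BTN2 and CUR1. The split of all genes depends on the scaling, with 2803 higher and 842 lower in the knockout and 1497 higher and 596 lower in wild type by library size alone, against 1751 and 1596 in the knockout and 891 and 967 in wild type by TMM. The plot of one heat response against the other shows that 6 of the 8 lay off the line of equal responses by the test of the difference.

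**Figure D3:**
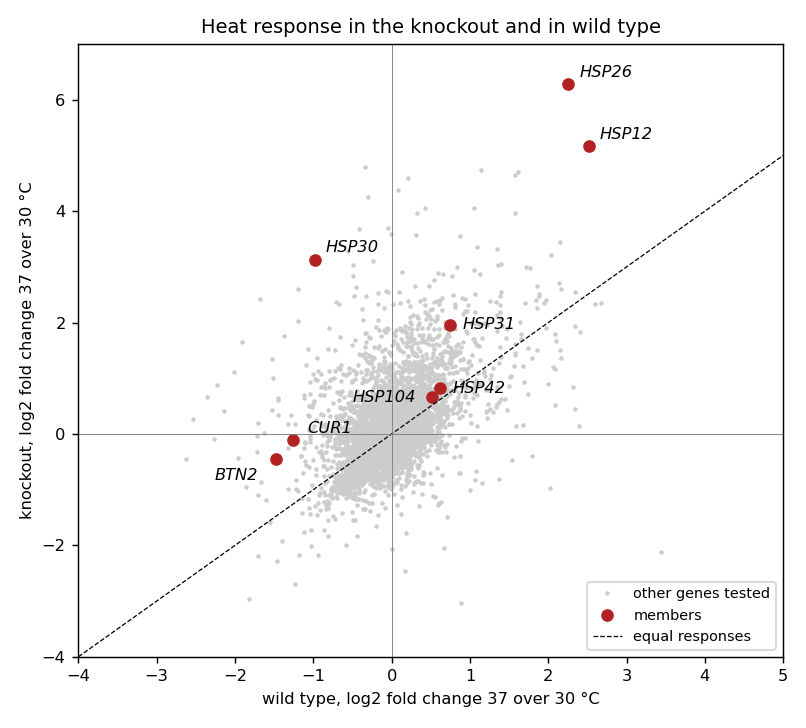
Log2 fold change of 37 over 30 °C in the knockout (vertical) against that in wild type (horizontal) for the 5667 genes tested, with the 8 members in red and a dashed line of equal responses. HSP26 lies at 6.28 in the knockout and 2.26 in wild type, HSP30 at 3.13 and -0.98, and HSP104 and HSP42 lie close to the line.

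In the knockout over wild type at 37 °C, 8 of 8 tested members were higher and 0 lower, beside 30.5% of all genes that were higher and 29.2% that were lower, with medians of 1.33 over the members and 0.01 over all genes. By library size alone all genes split into 2182 higher and 1123 lower there, against 1731 and 1656 by TMM, and the members' calls stayed at 8 higher. At 30 °C 2 were higher, HSP104 and HSP42, and 1 was lower, HSP30, beside 14.6% and 15% of all genes, and the median over the members was -0.30. For the difference between the heat responses, 6 passed, all with a higher value in the knockout, beside 16.4% of all genes with a higher and 17.2% with a lower value (1197 and 604 genes by library size alone, against 930 and 972 by TMM). The size of that difference ran from 1.04 for BTN2 to 4.11 for HSP30 among the 6. These comparisons share libraries, so their counts are not independent of one another.

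**Figure D4:**
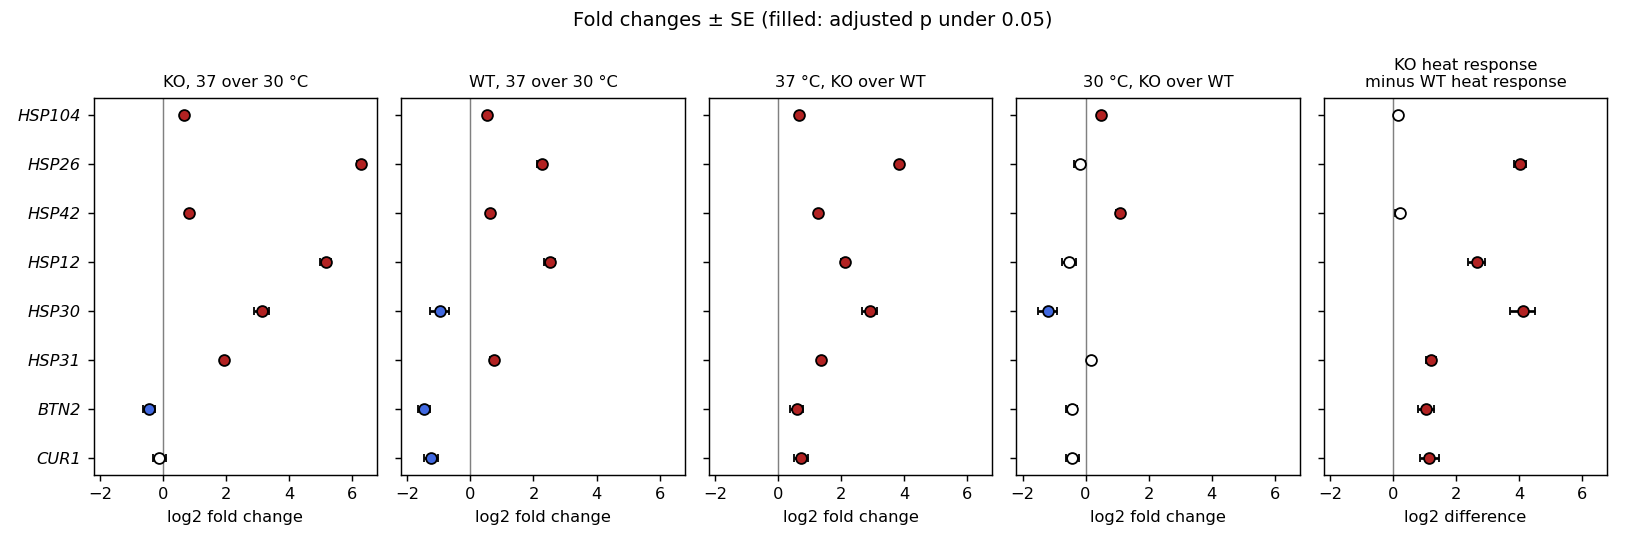
Log2 fold change ± SE of the 8 tested members in the 5 comparisons, with filled points for an adjusted p under 0.05 (red higher, blue lower) and open points otherwise. All 8 points lie right of 0 at 37 °C in the knockout over wild type, and the panel for 30 °C holds 3 filled points.

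The order of levels, per kilobase of coding sequence, also changed between groups. It depends on the division by length. By CPM alone HSP26 led in the heated knockout (mean 1057), before HSP104 (842) and HSP12 (819), whose libraries overlapped. In heated wild type HSP104 led by CPM (535, against 188 for HSP12). In the heated knockout HSP12 was highest at 2482 ± 424 CPM per kilobase, followed by HSP26 at 1639 ± 95.4, HSP104 at 309 ± 16.1, HSP31 at 167 ± 12.7, HSP42 at 154 ± 2.46 and HSP30 at 107 ± 34.9, with CUR1 at 23.0 ± 3.62 and BTN2 at 17.2 ± 5.15. In the unheated knockout the order began with HSP104 at 194 ± 13.4 CPM per kilobase and HSP42 at 87.0 ± 7.75, and HSP26 averaged 21.1 ± 4.41 and HSP30 12.1 ± 1.40, the lowest. In heated wild type HSP12 was highest at 571 ± 25.2, before HSP104 at 196 ± 1.76 and HSP26 at 114 ± 3.45. In unheated wild type HSP104 led at 137 ± 8.54 and HSP12 followed at 99.98 ± 21.1, while the 6 others lay between 24.0 and 41.2 CPM per kilobase. BTN2 and CUR1 overlapped in all 4 groups, so their order is not set. In the unheated knockout HSP42 overlapped HSP12, and HSP26 overlapped both BTN2 and CUR1. In heated wild type HSP31 overlapped HSP42, and HSP30 overlapped CUR1. In unheated wild type each of the 6 genes after HSP12 overlapped its neighbours.

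The lists of other genes that follow are counted beside the 30.9% of all genes that rose and 28.2% that fell with heat in the knockout, and the 15.7% and 17.1% in wild type. Genes whose products work with Hsp104 moved in both directions. Of 11 genes for cytosolic Hsp70s, Hsp40s and exchange factors, 4 rose and 5 fell with heat in the knockout (median -0.26), and 5 rose and 4 fell in wild type (median 0.25). By library size alone the medians were -0.02 in the knockout and 0.37 in wild type. SSA1 encodes an Hsp70 and resembles SSA2 so closely that reads may be split between them. SSA1 rose with heat by 0.52 ± 0.08 in the knockout (adjusted p = 0.000156) and by 2.08 ± 0.09 in wild type (adjusted p = 1.36e-08), a difference of -1.56 ± 0.12 (adjusted p = 2.93e-06). SSE2, for an exchange factor of the Hsp110 kind, went the other way, with a difference of 1.30 ± 0.15 (adjusted p = 5.78e-05), as did the Hsp40 gene APJ1 (1.08 ± 0.23, adjusted p = 0.0038). APJ1 fell by 1.01 with heat in wild type (adjusted p = 0.000678), beside the falls of BTN2 and CUR1 there.

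Of 9 genes for Hsp90 and its co-chaperones, 3 rose and 4 fell with heat in the knockout, and 6 rose and 0 fell in wild type. The medians were -0.18 and 0.70, and the first became 0.06, with 3 higher and 2 lower, by library size alone. The difference between the heat responses passed in 7, each with a lower value in the knockout. Of all genes tested, 17.2% had a lower and 16.4% a higher value by that test. HSP82, for the inducible Hsp90, rose with heat by 0.84 ± 0.13 in the knockout (adjusted p = 0.000159) and by 2.31 ± 0.14 in wild type (adjusted p = 2.84e-07), and at 37 °C it was lower in the knockout by 0.51 (SE 0.13, adjusted p = 0.00485). HSP78, for the mitochondrial relative of Hsp104, rose with heat in the knockout (0.51 ± 0.10, adjusted p = 0.000545) and did not pass in wild type (adjusted p = 0.989), with a difference of 0.51 ± 0.14 (adjusted p = 0.0149).

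Trehalose, a sugar that protects proteins during heat, is made by an enzyme complex. The 5 genes here are those of the complex and PGM2, for an enzyme earlier in the route. With heat 5 of 5 rose in the knockout and 2 of 5 in wild type. PGM2 rose by 2.20 ± 0.11 in the knockout (adjusted p = 1.31e-08) and by 0.42 ± 0.13 in wild type (adjusted p = 0.022). Of 12 general stress genes under Msn2 and Msn4, 11 rose and 0 fell with heat in the knockout (median 1.63), and 5 rose and 0 fell in wild type (median 0.50). TMA10 was among them, at 3.57 ± 0.39 in the knockout (adjusted p = 5.71e-06) and 0.31 ± 0.67 in wild type (adjusted p = 0.772). Its replicates lay far apart, at 160 and 388 CPM in the heated knockout and 14.6 and 31.5 CPM in the unheated knockout. Among 8 regulators 5 rose and 1 fell with heat in the knockout (7 and 0 by library size alone), and 3 rose and 0 fell in wild type. HSF1 rose with heat by 0.38 ± 0.08 in the knockout (adjusted p = 0.000947) and by 0.49 ± 0.08 in wild type (adjusted p = 0.00045). MSN4 rose in the knockout (1.13 ± 0.13, adjusted p = 1.05e-05) and did not pass in wild type (-0.19 ± 0.14, adjusted p = 0.327). Of 8 ubiquitin ligase and adaptor genes for misfolded proteins 3 rose and 3 fell with heat in the knockout, shares close to those of all genes, and 4 rose and 0 fell in wild type, with UBR1 at 0.36 in both genotypes. By library size alone 4 of the 8 rose and 0 fell in the knockout.

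The genes whose pattern over the 8 libraries was most like that of each member were found by Pearson's r of log2 CPM among 5126 genes whose mean level reached 10 CPM. For HSP26 they were TDH1, for an isozyme of a glycolytic dehydrogenase (r = 0.998), and GPM2 (r = 0.995). For HSP104 they were BNA2 and YBR085C-A (both r = 0.992), for HSP42 HEM14, of haem synthesis (r = 0.995), and CYC7, for the stress form of cytochrome c (r = 0.992). HSP31 was most like TGL2 and PRX1, for a mitochondrial peroxiredoxin (both r = 0.996), HSP12 most like ARK1 (r = 0.994) and HSP30 most like IRC23 (r = 0.977). BTN2 was most like NDE1 (r = 0.982) and CUR1 most like BUD16 (r = 0.959). Among the members themselves r was 0.986 between HSP26 and HSP31, 0.969 between HSP26 and HSP12 and 0.945 between HSP12 and HSP31. It was 0.965 between HSP104 and HSP42, 0.767 between HSP26 and HSP42 and 0.779 between BTN2 and CUR1. All these values rest on the same 8 libraries in 4 groups and describe those libraries.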

How the data were processed

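RNA was extracted with Trizol and mRNA libraries were made with a Kapa kit, per the labels' protocols. The authors deposited raw read counts per gene, and the submitters' processing notes name STAR, HTSeq and the builds R64 and sacCer3. Tool versions, strand setting and the handling of multi-mapping reads were not given in the sources at hand. Columns were tied to samples by genotype, temperature and replicate number. One edgeR model (version 4.0.16 under R 4.3.3, quasi-likelihood F test) held all 8 libraries with a coefficient per group, TMM scaling and filterByExpr (minimum count 10, minimum total 15). It left 4 residual degrees of freedom and a biological coefficient of variation of 6.19%, so each p rests on the spread of every group. The SE is the log2 fold change over the square root of F. If replicates were not separate cultures, p reflects technical spread. Floors are 3 counts over the summed libraries and cover counting error only.

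The members and gene lists were chosen with earlier results of these data known. All 10 members are named. From each list the rule allowed up to 3 called genes with the largest change per comparison, a gene so named is also given in other comparisons, and of the 2 genes most like a member some are left out. Other settings were RLE factors, no scaling beyond library size, no filter, DESeq2 1.42.0, a replicate block, the compared libraries alone and each library left out, where a lone library was taken to vary like the rest. The older quasi-likelihood form, a crossed block, the 600-base window and the lists under other scalings were added after the data were seen. Copies were found with blastn 2.17.0 among RefSeq R64 coding sequences, from which all printed sequence comes. Gene models hold no UTRs, so lengths are coding lengths. The genome sequencing in the series was not analysed here. The test was also run on simulated data drawn with the same spread in every group. That run does not cover the wider spread of the heated knockout.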

Additional observations from a re-analysis of the deposited data

Results flagged for a closer look

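The heat response, log2 of 37 over 30 °C, differed between the knockout and wild type by the test of the difference itself (edgeR, adjusted over 5667 genes) for 6 members. Of all genes tested, 16.4% had a higher and 17.2% a lower response in the knockout by that test. The response of the knockout exceeded that of wild type by 4.11 for HSP30, 4.03 for HSP26, 2.65 for HSP12, 1.20 for HSP31, 1.14 for CUR1 and 1.04 for BTN2. HSP30 was the member that rose in the knockout and fell in wild type. For BTN2 and CUR1 the difference came with a smaller or undetected fall in the knockout rather than a rise, and both had under 50 CPM in all libraries. Their calls were also less firm, holding in 14 of 15 other settings for BTN2 and 13 of 15 for CUR1. Those of HSP26, HSP12, HSP30 and HSP31 held in 15 of 15. Without knockout replicate 1 and without knockout replicate 2 at 37 °C, the value was 3.71 and 4.404 for HSP30 and 1.28 and 0.67 for BTN2.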

How the results depend on the processing

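Of 624 member values recomputed under other settings, 586 kept their direction and side of the threshold, 26 no longer passed, 8 newly passed and 4 changed sign. Many of these values come from leaving out a library of a group that was not compared, which can move the fold change only little. The tally therefore does not count independent checks. The sign changes concerned values that did not pass: CUR1 with heat in the knockout was 0.12 by library size alone and ran from -0.30 to 0.093 over left-out libraries, and HSP26 in the knockout over wild type at 30 °C ran from -0.42 to 0.011. The number of members called in the knockout over wild type at 30 °C was 3, ran from 2 to 5 over left-out libraries (5 without knockout replicate 1 or 2 at 37 °C) and was 5 with the 4 compared libraries alone, where HSP12 and BTN2 were also lower. In the other 4 comparisons the number stayed within 1 of its main value under all settings run. By library size alone the all-gene median moved to 0.27 for heat in the knockout, 0.13 for heat in wild type, 0.14 for the knockout at 37 °C and 0.12 for the difference, against 0.04, 0.01, 0.01 and 0.01 by TMM. The replicate number as a block over all groups changed 1 member's call, BTN2 at 30 °C (4 members called), and within genotype it changed none (7 with heat in the knockout, 8 in wild type, 6 for the difference). Deviations of same-numbered libraries correlated between -0.11 and 0.11 over 5667 genes, so the numbers were not taken as pairs. A crossed block at 37 °C, added later, gave 8 members called. HSP32 and HSP33 had too few counts to be compared.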
